A study of Rattus norvegicus with 287 samples.

Results

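The enteroendocrine hormone genes of the gut were followed in rat intestine. They are 8 genes taken by symbol from a table of 32623 genes: Gip (ENSRNOG00000006306), Cck (ENSRNOG00000019321), Sct (ENSRNOG00000017873), Ghrl (ENSRNOG00000010349), Pyy (ENSRNOG00000020877), Nts (ENSRNOG00000004179), Chga (ENSRNOG00000052549) and Tph1 (ENSRNOG00000011672). Each symbol matched 1 gene, and all 8 passed the filter on low counts in both cohorts. The study gave rats focused ultrasound, named pFUS, aimed through the skin at the porta hepatis, the gateway of vessels and nerves of the liver, and sequenced RNA of 8 tissues in 287 libraries, of which the 29 of intestine are used here. The dose was 3 minutes a day at 1.1 MHz (150 cycles a burst, pulses of 200 mV, bursts every 500 µs) under isoflurane, and controls had a sham stimulus with no energy. The intestine groups were all of the 7-week duration, with 1 library per rat number. They were obese ZDF rats with pFUS (n = 5) and obese ZDF controls (n = 5), Lean Zucker rats with pFUS (n = 3) and Lean Zucker controls (n = 5), all male. The second cohort held DIO-stz rats with pFUS (n = 5, 1 female), DIO-stz controls (n = 4, 2 female) and DIO Diet Resistant rats with pFUS (n = 2, both female, with no control of their own). ZDF rats are a diabetic line of the Zucker rat, whose obesity comes from a faulty leptin receptor, and DIO is the usual short form of diet-induced obesity. The ages of the rats and the stretch of intestine taken are not given in the sources used here.

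Enteroendocrine cells are scattered hormone-secreting cells of the gut lining that sense nutrients and release peptides or serotonin into the blood and onto nerve endings. The hormone a cell makes depends strongly on its place along the gut. Gip (the incretin GIP), Cck (cholecystokinin, which empties the gallbladder and curbs eating) and Sct (secretin, which makes the pancreas release bicarbonate) are known from the upper small intestine, and Ghrl (ghrelin, a hunger signal) from the stomach and duodenum. Pyy (peptide YY, a satiety signal) and Nts (neurotensin) are known from the ileum and, for Pyy, the colon. Tph1 makes serotonin in enterochromaffin cells, and Chga codes for chromogranin A, a protein of secretory granules that most enteroendocrine cells share. A pair of genes outside this set marks place: Fabp6, the bile acid binding protein of ileal enterocytes, and Pdx1, a transcription factor of the duodenum and pancreas.

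The start-proximal sequence is shown for genes whose medians were higher in opposite sets of libraries, as given below. The ranges of Gip, Ghrl and Nts overlapped between those sets. The 250 bases before the RefSeq start on GRCr8 are printed for Gip (chr10:81464820-81465069, plus strand), Ghrl (chr4:148425225-148425474, minus strand), Pyy (chr10:87562471-87562720, minus strand) and Nts (chr7:39460889-39461138, minus strand). They read 5′ to 3′ along the gene, and capitals mark matches on either strand to the hexamer AGATAA known from Gata factors, to the E-box CANNTG or to the heptamer TGACTCA known from the AP-1 family.
Gip promoter: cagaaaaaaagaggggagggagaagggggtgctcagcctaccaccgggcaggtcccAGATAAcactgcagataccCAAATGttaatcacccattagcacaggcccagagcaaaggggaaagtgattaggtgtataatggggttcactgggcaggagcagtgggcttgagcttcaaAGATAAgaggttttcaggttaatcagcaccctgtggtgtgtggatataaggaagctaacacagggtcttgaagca
Ghrl promoter: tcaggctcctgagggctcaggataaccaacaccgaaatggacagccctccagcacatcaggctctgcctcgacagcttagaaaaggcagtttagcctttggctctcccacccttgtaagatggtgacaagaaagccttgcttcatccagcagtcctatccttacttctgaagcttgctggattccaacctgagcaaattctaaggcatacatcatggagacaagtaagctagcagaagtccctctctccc
Pyy promoter: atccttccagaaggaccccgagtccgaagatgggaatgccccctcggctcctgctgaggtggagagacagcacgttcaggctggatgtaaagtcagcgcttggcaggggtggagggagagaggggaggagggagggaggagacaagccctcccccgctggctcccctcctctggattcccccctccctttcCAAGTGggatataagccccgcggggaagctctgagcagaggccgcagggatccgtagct
Nts promoter: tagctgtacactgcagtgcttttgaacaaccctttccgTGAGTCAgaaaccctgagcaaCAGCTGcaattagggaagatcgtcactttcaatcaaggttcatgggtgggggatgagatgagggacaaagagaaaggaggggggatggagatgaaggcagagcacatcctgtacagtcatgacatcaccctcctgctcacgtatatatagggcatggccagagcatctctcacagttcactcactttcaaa
Of the 8 genes, 5 matched the promoter table by symbol: these 4 and Tph1. The Gip window held AGATAA at 2 places, starting -194 and -75 bases before the start, and CANNTG at 1 place. The Nts window held CANNTG and TGACTCA once each, the Pyy window held CANNTG once and no other of these motifs, and the Ghrl window held none of the 3. No matches of different motifs overlapped. Among 33469 promoter windows of the same length, 10.3% held AGATAA, 65.5% held CANNTG and 4.0% held TGACTCA on either strand, so a match describes letters in a window and not a bound factor.

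Intestine libraries held 9411372 to 19041490 counts (median 14757042). Levels are given as CPM, counts scaled to the library's total, which suit comparisons of 1 gene between libraries and not of genes with each other. In bulk tissue, fewer cells of a type and less RNA per cell cannot be told apart. The tissue label was borne out by the enterocyte gene Vil1, which ran from 1501 to 5235 CPM here and stayed at or below 244 CPM elsewhere. The Y-linked genes Kdm5d and Eif2s3y summed to at least 20.7 CPM in libraries labelled male and to 0 in those labelled female. In obese control rat 5 the gene ENSRNOG00000030106, which differed between rats, stood at 47.7 CPM in intestine, 10.4 CPM in adipose tissue and 7.86 CPM in blood. It stood at most at 0.738 CPM in brain, kidney, liver, muscle and pancreas of that rat. In obese pFUS rat 8 it stood at 1.80 CPM in intestine, 7.54 CPM in liver, 23.3 CPM in adipose tissue and 0.244 CPM in blood. In obese pFUS rat 9 it stood at 15.8 CPM in intestine and 0.223 CPM in liver. That rat also had 11.1 CPM in adipose tissue, 10.7 CPM in muscle and 4.74 CPM in blood. Some tissue libraries may not come from the rat of their number, and whether this gene differs by tissue was not tested. Values below are therefore also given without single libraries where a call turns on them. Acinar genes of the pancreas (8 of 9 listed genes found) summed to 19553 CPM in obese pFUS rat 7, against at most 24.8 CPM in obese controls, and to 522 CPM in 1 DIO-stz control. Their part in the results was not tested.

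Fabp6 parted the libraries. It stood at 114 to 14140 CPM in 8 libraries and at 0.390 to 6.62 CPM in the other 21, with none in between. The 8 were 1 of 5 obese controls (5687 CPM), 2 of 5 lean controls (8720 and 14140 CPM), 2 of 5 DIO-stz pFUS rats (114 and 5425 CPM) and 3 of 4 DIO-stz controls (6893, 3744 and 401 CPM), while no library of obese pFUS, lean pFUS or DIO Diet Resistant pFUS rats was among them. The groups compared thus differed in this marker of gut position, and its number of libraries is given beside the comparisons.

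Pyy followed the Fabp6 split without overlap. It ran from 6.01 to 45.2 CPM (median 15.2) in the 8 libraries high in Fabp6, against 0 to 2.27 CPM (median 0.212) in the other 21. The share of all genes without overlap across this split was not counted, so how far Pyy stands out is not known. Nts, the other distal hormone, ran from 29.0 to 185 CPM (median 88.0) in the 8, against 1.86 to 53.4 CPM (median 13.4) in the 21, so the sets overlapped. Glucagon gene transcripts (Gcg, the source of GLP-1 in the distal gut) leaned the same way, with medians of 92.9 CPM in the 8 and 38.1 CPM in the 21. Sct had the higher median in the libraries high in Fabp6 as well, 15.2 CPM (7.87 to 33.0) against 7.89 CPM (3.24 to 14.9).

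Ghrl, Cck, Gip and Tph1 had their lower medians in the libraries high in Fabp6. Ghrl lay between 0.0577 and 11.5 CPM (median 0.651) in the 8 libraries high in Fabp6, against 4.72 to 40.8 CPM (median 23.6) in the 21. Cck had medians of 5.11 CPM in the 8 and 29.7 CPM in the 21, Gip 15.7 and 52.9 CPM, and Tph1 12.3 and 22.6 CPM, each with overlapping ranges. The library of DIO-stz pFUS rat 7, with the lowest Fabp6 of the 8, held the highest Gip of all 29 libraries at 103 CPM together with 35.5 CPM of Cck, 11.5 CPM of Ghrl and 8.00 CPM of Pyy. Chga differed least between the sets, with medians of 70.7 CPM in the 8 and 62.1 CPM in the 21. These are descriptions, as the sets were drawn from the libraries' own Fabp6.

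**Figure D1:**
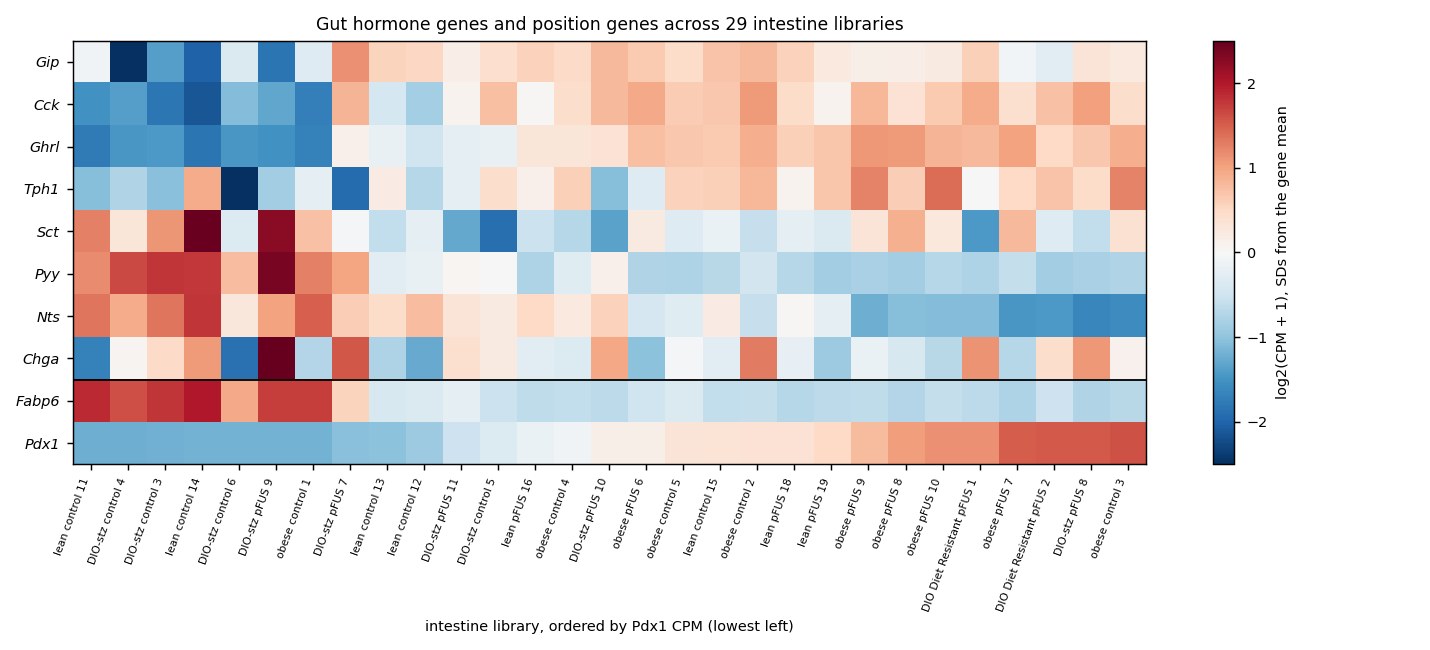
Heat map of the 8 hormone genes, Fabp6 and Pdx1 (rows) in the 29 intestine libraries (columns, ordered by Pdx1 CPM with the lowest at the left). Colour gives log2(CPM + 1) in SDs from the gene's mean. Pyy and Nts are high at the left, where the 8 libraries with Fabp6 of at least 114 CPM lie, and Ghrl and Cck are low there in all but 1 of the 8.

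Pdx1, taken here as a measure of position, was graded among the 21 libraries low in Fabp6. Pdx1 ran from 0.0686 to 0.345 CPM in the 8 libraries high in Fabp6 and from 0.393 to 43.3 CPM in the other 21. In the 8 it went down to 1 count, so differences among them rest on few counts of Pdx1. Pdx1 is also a pancreas gene, and obese pFUS rat 7, with its acinar genes at 19553 CPM, held 39.5 CPM of it. How much pancreas tissue added to Pdx1, here or where it serves as a covariate, was not tested. Over all 29 libraries, log2(CPM + 1) of Nts fell with that of Pdx1 (Pearson r -0.94, Spearman rho -0.94, two-sided permutation p = 1e-05 for both, the smallest that the resamples can give). Pyy also fell (r -0.81, rho -0.85, permutation p = 1e-05 for both, the smallest possible), while Ghrl rose (r 0.86, rho 0.89, permutation p = 1e-05 for both, the smallest possible). Cck (r 0.75, permutation p = 1e-05, rho 0.67) and Tph1 (r 0.65, permutation p = 9e-05, rho 0.65) rose too, and Gip rose by r (0.42, permutation p = 0.0204) but not by rho (0.32, permutation p = 0.0956). Sct (r -0.27, permutation p = 0.161) and Chga (r 0.05, permutation p = 0.783) did not pass. Leaving out the 2 libraries farthest from the median of Pdx1 gave r of -0.92 for Nts, -0.82 for Pyy, 0.87 for Ghrl, 0.76 for Cck, 0.63 for Tph1 and 0.42 for Gip.

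Both cohorts showed the same directions for the leading genes. Within the 18 ZDF and Zucker libraries r with Pdx1 was -0.95 for Nts, -0.75 for Pyy, 0.88 for Ghrl and 0.78 for Cck. Within the 11 DIO libraries it was -0.94 for Nts, -0.89 for Pyy, 0.85 for Ghrl and 0.74 for Cck. In all, 24 relations were computed (8 genes with Fabp6 in each of 2 sets and with Pdx1), and adjusted p-values come from slopes fitted over all genes with a term for group (edgeR's quasi-likelihood test, Benjamini-Hochberg). Per doubling of Pdx1 CPM + 1, the slope was -0.89 ± 0.10 log2 units for Nts (SE, adjusted p = 1.59e-05), -1.49 ± 0.21 for Pyy (adjusted p = 1.13e-04), 0.22 ± 0.05 for Tph1 (adjusted p = 0.0144) and 0.72 ± 0.21 for Ghrl (adjusted p = 0.0445). Cck had a slope of 0.38 ± 0.14 and an adjusted p of 0.0922, and the slopes of Gip, Sct and Chga did not pass. Of all 15416 genes tested, 5.77% passed. Within the 21 libraries low in Fabp6, 1 of the 8 genes passed in edgeR, Nts, with a slope of -0.90 ± 0.15 (adjusted p = 0.00622, where 0.863% of genes passed). Pdx1 did not overlap between the libraries high and low in Fabp6, so values over all libraries also carry that split. Within the 21, the slope of Gip was -0.19 ± 0.08 (edgeR adjusted p = 0.441), against 0.09 ± 0.19 over all libraries. That of Sct was 0.20 ± 0.05 (edgeR adjusted p = 0.106), against -0.19 ± 0.10. The other genes kept the sign of their slope.

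**Figure D2:**
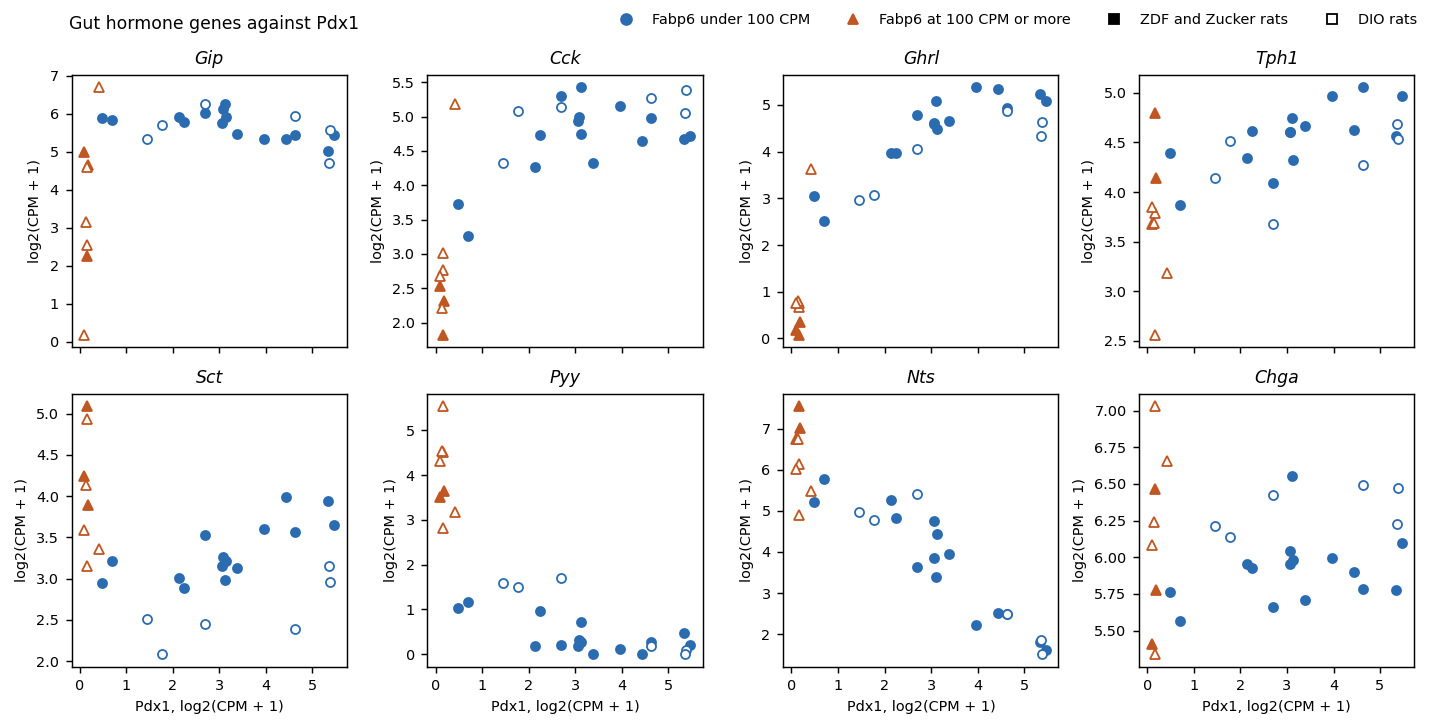
Log2(CPM + 1) of each hormone gene (y) against that of Pdx1 (x) in 29 intestine libraries. Triangles are the 8 libraries with Fabp6 at 100 CPM or more, circles the other 21, filled for ZDF and Zucker rats and open for DIO rats. Nts slopes down across the whole range (r -0.94), Pyy drops between the triangles and the circles, and Ghrl and Cck climb.

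Relations to Fabp6 itself were computed within each set, since a pooled value would reflect the split. In the 21 libraries low in it, Fabp6 ran from 0.390 to 6.62 CPM and down to 6 counts, so relations there rest on few counts of it. The permutations took no account of group. Among the 21 libraries low in Fabp6, Ghrl fell with Fabp6 (Pearson r -0.69, two-sided permutation p = 9.1e-04, Spearman rho -0.54, p = 0.0121) and Nts rose (r 0.50, permutation p = 0.0205, rho 0.44, p = 0.0472). Pyy (r 0.46, permutation p = 0.0337) and Cck (r -0.43, permutation p = 0.0491) passed by r but not by rho (0.32 and -0.13). No slope on Fabp6 among these libraries passed in edgeR after adjustment over all genes, where 0.0322% of 15534 genes did. Without the 2 libraries farthest from the median of Fabp6, r was -0.73 for Ghrl (permutation p = 7e-04), 0.51 for Nts (p = 0.0251) and -0.49 for Cck (p = 0.0333), while Pyy no longer passed (r 0.41, permutation p = 0.0768).

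Among the 8 libraries high in Fabp6, Cck fell with it (r -0.90, exact permutation p = 0.00149, rho -0.90) and so did Ghrl (r -0.84, exact permutation p = 0.00585, rho -0.74). Nts (r 0.85, exact permutation p = 0.0112) and Sct (r 0.76, exact permutation p = 0.00903) rose, as did Tph1 by r (0.78, exact permutation p = 0.0259) but not by rho (0.57, p = 0.151). Without the 2 farthest libraries, Nts kept a permutation p of 0.0444 (r 0.86), while Cck (r -0.79), Ghrl (r -0.78), Sct (r 0.68) and Tph1 (r 0.63) no longer passed with 6 libraries. In edgeR over all genes, with no group term, the slopes of Cck (-0.50 ± 0.07, adjusted p = 0.00704) and Ghrl (-0.83 ± 0.12, adjusted p = 0.0107) passed, where 10.4% of genes did.

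Obese controls were set against lean controls to see how the obese diabetic line differs without stimulation, and none of the 8 genes passed the test. Cck had 3.96, 42.2, 25.4, 25.6 and 29.7 CPM in obese controls, against 4.80, 8.61, 12.3, 2.54 and 30.9 CPM in lean controls. Its log2 fold change was 1.07 ± 0.57 (SE, edgeR adjusted p = 0.416), and the groups overlapped. Ghrl, at 0.268, 32.7, 32.8, 14.7 and 23.6 CPM in obese controls and 0.137, 4.72, 7.33, 0.0577 and 23.2 CPM in lean controls, had a log2 fold change of 1.51 ± 0.95 (edgeR adjusted p = 0.475). Nts averaged 36.1 ± 52.4 CPM in obese controls and 81.3 ± 65.7 CPM in lean controls (SD, n = 5 each), a log2 fold change of -1.14 ± 0.81 (edgeR adjusted p = 0.525). Fabp6 was high in 1 obese and 2 lean controls, and the lowest Ghrl values stood in those libraries. Gip, Sct, Pyy, Chga and Tph1 had log2 fold changes from -1.33 (Pyy) to 0.34 (Tph1), with edgeR adjusted p from 0.415 to 0.887. Of all 14709 genes tested, 0.0136% passed, and for none of the 8 did the groups not overlap, as 0.884% of all genes did. At an unadjusted p under 0.05 edgeR counted 1990 genes and none of the 8, and DESeq2 passed 149 genes after adjustment and none of the 8. These values depended on the libraries in the fit. Without obese control rat 1, 6 of the 8 had an unadjusted p under 0.05 in edgeR, as did 2448 of all 14634 genes. Without lean control rat 15 it was 3 of the 8 and 2598 of 14687 genes. Without the libraries high in Fabp6 it was 3 of the 8 and 1802 of 14524 genes. None of the 8 passed adjustment in these fits. Leaving out 1 library at a time, Pyy ran from -3.76 (without obese control rat 1) to -0.26 (without lean control rat 14) and Nts from -2.55 to -0.61 with the same libraries left out. Without lean control rat 15, Ghrl was 2.81 and Cck 1.87, with the lowest adjusted p of these refits (0.0916, Cck), and without lean control rat 14, Sct was -0.16.

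Obese rats with pFUS were set against obese controls as the main test of the stimulus. None of the 8 genes passed with all libraries in, and Nts and Pyy had the lowest unadjusted p. Nts stood at 11.5, 2.53, 4.77, 3.68 and 4.59 CPM in obese pFUS rats, against 128, 9.43, 2.05, 27.4 and 13.4 CPM in obese controls. Its log2 fold change was -2.44 ± 0.87 (edgeR adjusted p = 0.173) with all libraries, -1.003 ± 0.68 (adjusted p = 0.476) without obese control rat 1, the library at 128 CPM, and -0.99 ± 0.61 (adjusted p = 0.362) without all libraries high in Fabp6, a fit that also loses 2 lean controls. Pyy averaged 0.166 ± 0.148 CPM in obese pFUS rats and 2.68 ± 4.96 CPM in obese controls (SD, n = 5 each), and 1 control held 11.5 CPM while the other 4 were at most 0.942 CPM. Its log2 fold change was -3.63 ± 1.46 (edgeR adjusted p = 0.210) with all libraries, -1.18 ± 1.34 (adjusted p = 0.704) without that control, obese control rat 1, and -1.16 ± 0.80 (adjusted p = 0.420) without all libraries high in Fabp6. The groups overlapped for both genes.

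Sct, the secretin gene, had 10.6, 14.3, 14.9, 11.2 and 10.9 CPM in obese pFUS rats, against 13.8, 6.91, 11.5, 6.39 and 7.89 CPM in obese controls. The pFUS values were close together, and the controls at 13.8 and 11.5 CPM lay within their range. With all libraries the log2 fold change was 0.68 ± 0.35 (edgeR adjusted p = 0.317). The control at 13.8 CPM is obese control rat 1, the library high in Fabp6, and without it alone the log2 fold change was 0.85 ± 0.37 (edgeR adjusted p = 0.251). Without all libraries at 100 CPM of Fabp6 or more, a fit that also loses 2 lean controls and keeps 5 pFUS and 4 control libraries of obese rats, Sct rose by 0.87 ± 0.20 on the log2 scale (edgeR adjusted p = 0.0386), in a fit where 2.47% of all genes passed. Sct was the only one of the 8 to pass in that fit. With log2 Pdx1 added to the fit, chosen after seeing the data, it was 0.76 ± 0.16 (adjusted p = 0.0376, where 1.25% of genes passed), and with all libraries and log2 Fabp6 as a covariate 1.00 ± 0.22 (adjusted p = 0.0549). Scaled by library totals with no TMM factors, also chosen after seeing the data, Sct was 0.42 ± 0.36 (edgeR adjusted p = 0.414) with all libraries and 0.61 ± 0.19 (adjusted p = 0.0434) without those high in Fabp6, where 13.9% of genes passed. Leaving out each of the 9 remaining libraries in turn, also chosen after seeing the data, kept the log2 fold change between 0.77 and 1.09 with adjusted p from 0.0334 to 0.129. Sct passed in 2 of these 9 refits, those without obese pFUS rat 6 (0.0407) or rat 10 (0.0334), and missed without any of the other libraries, among them obese control rat 5 (0.0595) and obese pFUS rat 7 with its pancreas genes (0.0977).

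No other gene of the 8 passed in obese rats. Ghrl averaged 34.8 ± 6.28 CPM in obese pFUS rats and 20.8 ± 13.7 CPM in obese controls (SD, n = 5 each, log2 fold change 1.02 ± 0.92, edgeR adjusted p = 0.589). Chga averaged 55.8 ± 5.06 CPM in obese pFUS rats and 67.8 ± 15.1 CPM in obese controls, with a fitted log2 fold change of -0.0022 ± 0.16 (edgeR adjusted p = 0.996). Gip, Cck and Tph1 had log2 fold changes of 0.10, 0.56 and 0.32, none past the test. Fitted values here carry TMM factors, edgeR's correction for library composition, which were 0.771 to 0.969 in obese pFUS libraries and 1.02 to 1.13 in obese controls, so fitted fold changes lie above ratios of plain CPM. Gip averaged 43.4 CPM in obese pFUS rats and 49.9 CPM in obese controls, and with no TMM factors its log2 fold change was -0.20 and that of Chga -0.27. Over all genes tested the median log2 fold change was -0.30 with no TMM factors and -0.04 with them. Of all 14709 genes, 0.0612% passed, and no member's groups were without overlap, where 10.4% of all genes had none. DESeq2 passed 556 genes and none of the 8, and 2642 genes had an unadjusted p under 0.05 in edgeR, of which 2 were members. Fabp6 was high in 0 of 5 obese pFUS rats and 1 of 5 obese controls.

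**Figure D3:**
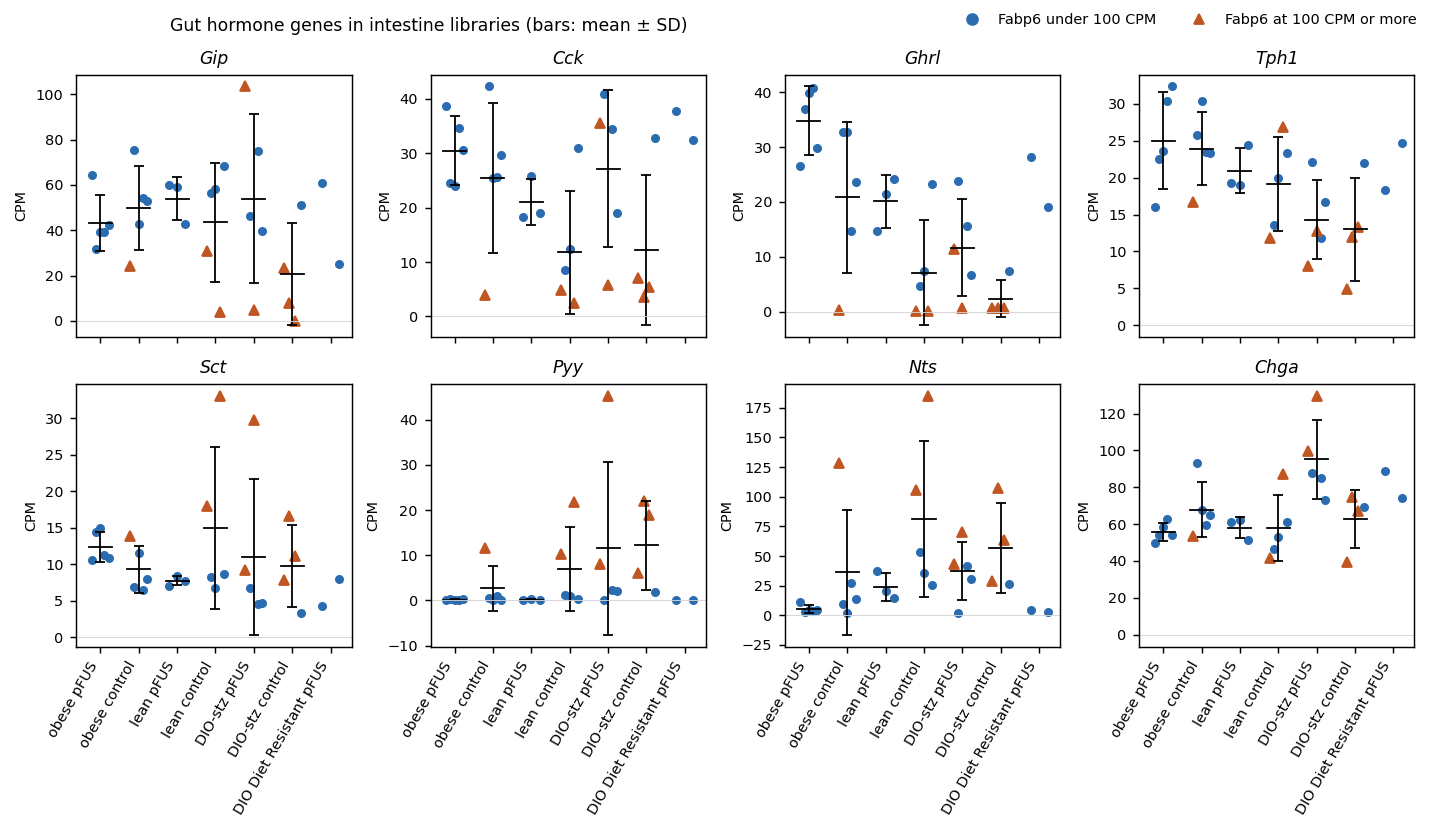
CPM of each hormone gene (y) by group (x), 1 point per library, with the mean and SD for groups of 3 or more. Triangles are libraries with Fabp6 at 100 CPM or more. Triangles set the top of the Pyy and Nts panels and the bottom of the Ghrl panel in both control groups of ZDF and Zucker rats.

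Lean rats with pFUS were set against lean controls. No gene of the 8 passed, though Pyy did not overlap: it had 0.136, 0.214 and 0 CPM (2, 3 and 0 counts) in lean pFUS rats, against 10.4, 1.25, 1.05, 21.8 and 0.241 CPM in lean controls. Across all genes 7.7% had no overlap between these groups. The log2 fold change of Pyy was -5.69 ± 1.91 (edgeR adjusted p = 0.448) with all libraries and -2.64 ± 0.99 (adjusted p = 0.710) without the libraries high in Fabp6 (2 lean controls and obese control rat 1), and with so few counts its size is uncertain. Sct had 7.05, 8.29 and 7.72 CPM in lean pFUS rats, against 18.0, 8.26, 6.74, 33.0 and 8.63 CPM in lean controls. Its log2 fold change of -0.87 ± 0.42 (edgeR adjusted p = 0.465) became 0.05 ± 0.24 (adjusted p = 0.967) without the same libraries, of which the 2 lean controls are those at 18.0 and 33.0 CPM. Nts (-1.67 ± 0.99), Ghrl (1.53 ± 1.05) and Cck (0.87 ± 0.64) did not pass, nor did Gip, Chga and Tph1, at 0.36, 0.08 and 0.20. Of all genes 0.0068% passed, 1570 had an unadjusted p under 0.05, and DESeq2 passed 18 genes and none of the 8.

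Whether the stimulus acted differently in obese and lean rats was tested as an interaction, in which none of the 8 genes passed and 0.0068% of all genes did. Sct had the largest difference relative to its error, 1.55 ± 0.55 log2 units (obese effect minus lean effect, edgeR adjusted p = 0.397, unadjusted p = 0.0111). It joined a log2 fold change of 0.68 in obese rats and -0.87 in lean rats. The lean part largely went away without the libraries high in Fabp6, as given above. Without the libraries high in Fabp6, 0 genes passed in that interaction in edgeR (1797 with an unadjusted p under 0.05). Members with an unadjusted p under 0.05 numbered 1 in edgeR and 1 in DESeq2, of 1524 such genes in edgeR, and DESeq2 passed 46 genes after adjustment and none of the 8.

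DIO-stz rats with pFUS were set against DIO-stz controls, with sex in the fit, and none of the 8 passed. In counts simulated from this cohort's means and spread, the fit recovered 0.5% of genes changed 2-fold and 81.5% of those changed 4-fold. For obese pFUS against obese control the same shares were 61.5% and 94%. The changed genes were drawn at random among expressed genes, so these shares are not those of the 8 genes. For such genes, changes near 2-fold would mostly be missed in DIO-stz rats. In obese rats Nts (log2 fold change -2.44 ± 0.87) and Pyy (-3.63 ± 1.46) did not pass even at larger changes. Ghrl had 11.5, 23.9, 0.602, 15.6 and 6.77 CPM in DIO-stz pFUS rats, against 0.744, 0.704, 7.41 and 0.700 CPM in DIO-stz controls. Its log2 fold change was 2.25 ± 0.92 (edgeR adjusted p = 0.952, unadjusted p = 0.0342) and 1.51 ± 0.45 (adjusted p = 0.434) in the libraries low in Fabp6, where 1 control library is left and is assumed to vary like the other groups of the fit. Chga had 99.9, 88.0, 130, 85.1 and 73.2 CPM in DIO-stz pFUS rats, against 74.6, 66.9, 69.5 and 39.5 CPM in DIO-stz controls. Of the DIO-stz pFUS rats, 4 lay above every control and 1 did not, and the log2 fold change was 0.65 ± 0.22 (edgeR adjusted p = 0.952, unadjusted p = 0.0136). Gip ranged from 4.88 to 103 CPM in DIO-stz pFUS rats and from 0.141 to 51.3 CPM in DIO-stz controls, and the log2 fold changes of the other genes ran from -0.12 (Nts) to 1.58 (Gip). Of all 14833 genes 0% passed in edgeR, 513 had an unadjusted p under 0.05, and DESeq2 passed 6 and none of the 8. No member was without overlap, where 1.24% of all genes were. Fabp6 was high in 2 of 5 DIO-stz pFUS rats and 3 of 4 DIO-stz controls.

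**Figure D4:**
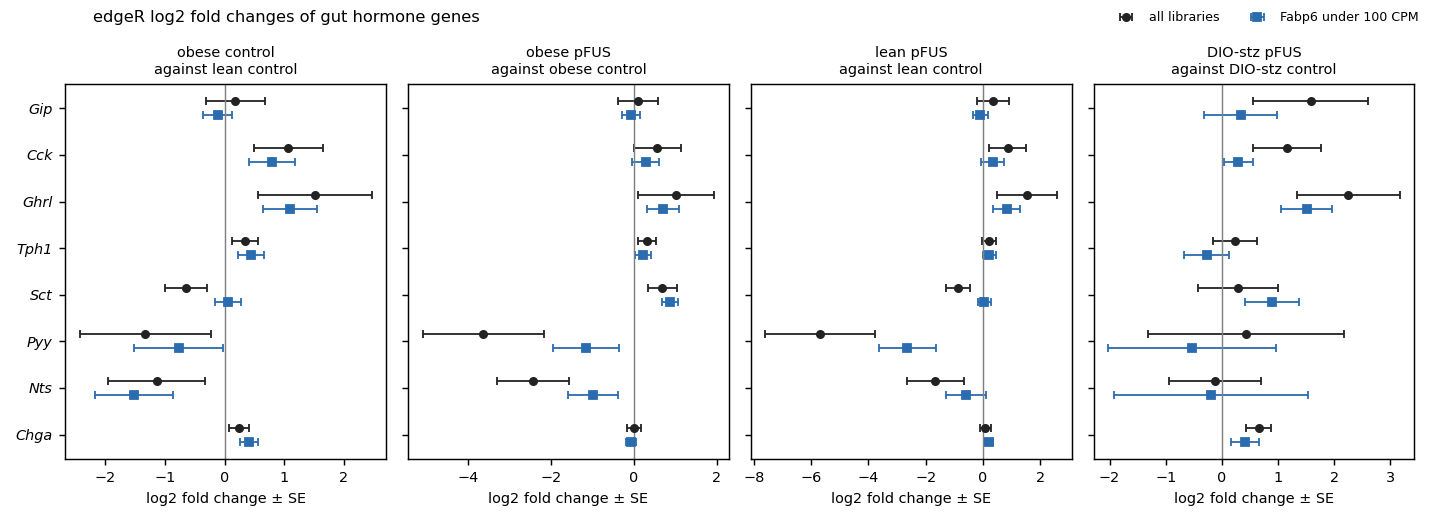
Log2 fold changes with SE (x) of the 8 hormone genes (y) in 4 comparisons, from edgeR. Circles use all libraries and squares those with Fabp6 under 100 CPM. Sct in obese pFUS against obese control is at 0.68 with all libraries and 0.87 with the low ones, and Pyy and Nts lie nearer 0 in the low libraries in both comparisons of pFUS with control in ZDF and Zucker rats.

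DIO Diet Resistant rats with pFUS had 60.9 and 25.3 CPM of Gip, 37.7 and 32.3 CPM of Cck, 28.2 and 19.1 CPM of Ghrl, 4.60 and 2.62 CPM of Nts and 0.137 and 0 CPM of Pyy. With no control of their own they were set against no group.

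Ordered by group mean, most neighbouring groups lay within the larger of their SDs. Ghrl was highest in obese pFUS rats (34.8 ± 6.28 CPM, n = 5), above the next group, DIO Diet Resistant pFUS (23.6 ± 6.45 CPM, n = 2), by more than either SD, and lowest in DIO-stz controls (2.39 ± 3.35 CPM, n = 4). Nts was highest in lean controls (81.3 ± 65.7 CPM), followed by DIO-stz controls (56.6 ± 37.9 CPM), DIO-stz pFUS (37.4 ± 24.6 CPM), obese controls (36.1 ± 52.4 CPM), lean pFUS (24.2 ± 11.8 CPM), obese pFUS (5.41 ± 3.51 CPM) and DIO Diet Resistant pFUS (3.61 ± 1.40 CPM). The step between lean pFUS and obese pFUS exceeded both SDs. The neighbours of the other 6 genes did not differ by more than the larger SD. Chga was highest in DIO-stz pFUS (95.1 ± 21.5 CPM) and lowest in obese pFUS (55.8 ± 5.06 CPM), Tph1 highest in obese pFUS (25.0 ± 6.54 CPM) and lowest in DIO-stz controls (13.0 ± 6.99 CPM).

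Among the 8 genes, Cck and Ghrl were the most alike pair over the 29 libraries (Pearson r 0.92 of log2(CPM + 1)), and Pyy and Ghrl the most opposed (r -0.91). Pyy and Nts had r of 0.79, Gip and Cck 0.72, and Chga at most 0.27 with any other member. The genes outside the set most like each member were Phyh (r 0.89) and Gata4 (0.89) for Gip, Atox1 (0.92) and Prdm16 (0.92) for Cck, Rhbdl2 (0.81) and Slc51b (0.81) for Sct, and Stfa3 (0.94) and Tmprss15 (0.93) for Ghrl. They were Ly6al (0.96) and Relb (0.96) for Pyy, Cmahp (0.91) and Osr2 (0.91) for Nts, Sap30bp (0.73) and Safb (0.72) for Chga, and Kctd9 (0.88) and Piga (0.87) for Tph1. Slc51b is a subunit of the basolateral bile acid exporter, and Tmprss15 codes for enteropeptidase, the duodenal protease that activates trypsinogen. The libraries differ in Fabp6 and Pdx1, which move with several of these genes, and the r values are descriptions with no test.

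Other genes of the enteroendocrine system were taken from lists. No tested gene passed in any of the 5 comparisons among 8 to 9 other hormones (12 of 13 listed found), 16 to 17 enteroendocrine transcription factors, 20 granule and prohormone processing genes, 11 to 12 nutrient sensors and 9 to 10 receptors of the members. In obese pFUS rats against obese controls, the median log2 fold change was -0.07 for the other hormones, -0.18 for the transcription factors, -0.12 for the granule genes, 0.17 for the sensors and -0.45 for the receptors, beside -0.04 over all genes tested. Neurog3, which starts enteroendocrine cell fate, averaged 1.11 ± 0.417 CPM in obese pFUS rats and 0.854 ± 0.540 CPM in obese controls (SD, n = 5 each). Genes of proximal position had a median of 0.66 in that comparison, 1.36 in lean pFUS against lean control, 0.84 in obese against lean controls and 1.44 in DIO-stz pFUS against DIO-stz control. Ileal genes had medians of -0.38, -1.66, -1.35 and 0.26 in the same comparisons. Lymphoid genes had a median of -2.30 in obese pFUS against obese control and 3.15 in obese against lean controls, and Paneth cell genes -0.98 in obese pFUS, -2.63 in lean pFUS and -1.59 in obese against lean controls. Summed lymphoid CPM ran from 8.49 to 384 in obese controls (median 22.1) and from 16.8 to 67.7 in obese pFUS rats (median 21.8). In lean controls it ran from 16.9 to 76.2 (median 37.4). The group medians of these sums did not show the lymphoid shifts. No tested gene passed in any comparison among the lists for enterocytes, goblet, Paneth, stem, tuft and mast cells, enteric neurons and glia, smooth muscle, lymphoid cells, pancreas, stomach, ileum or colon. Some of these lists were barely tested after the filter on low counts: 1 of 8 pancreas genes found, 0 of 7 stomach genes (1 in the DIO-stz comparison), 5 to 6 ileal genes and 4 to 5 colon genes. Mast cell genes (12 of 13 found) summed to 23.6 to 166 CPM in obese pFUS rats (median 156) and 70.6 to 220 CPM in obese controls (median 100). Their median log2 fold change was 0.20, and their part in the results was not tested.

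Outside the intestine the 8 genes were sparse in the 7-week libraries, with exceptions that mark other hormone tissues. Gip had counts in all 29 intestine libraries, 2 of 31 brain libraries and 1 of 20 pancreas libraries, and none in adipose tissue, blood, kidney, liver or muscle. Cck, also a neuropeptide, ran from 15.4 to 289 CPM in brain (median 120 CPM), and Chga from 127 to 323 CPM there (median 186 CPM) and from 0.823 to 34.2 CPM in pancreas (median 7.24 CPM). Nts was present in all 31 brain libraries at a median of 6.25 CPM. Pyy (median 0.422 CPM) and Ghrl (median 0.124 CPM), hormones that islets can make, were low in pancreas. Tph1 had a median of 1.84 CPM in adipose tissue and 0.896 CPM in kidney, against 20.0 CPM in intestine, and Sct had a median of 0.309 CPM in kidney, against 8.29 CPM in intestine. Pancreas and adipose libraries were made with another kit, so levels across tissues are side by side only.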

How the data were processed

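RNA of rat tissues was sequenced by the submitters from stranded mRNA libraries, or stranded total RNA libraries for pancreas and adipose tissue, per the labels' protocols. STAR 2.5.3a, RSEM and Rnor_6.0 are named in the submitters' processing notes; which annotation release served is not given in the sources. The authors deposited whole-number expected counts for each gene, without normalization. Isoform counts were not used. Numbers in the labels are taken as rats; nothing states that they are separate animals, so p-values measure only the spread between these samples, which may be technical.

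CPM was computed per library total. Tests used edgeR 4.0.16 in R 4.3.3 (TMM, filterByExpr at a minimum count of 10, robust quasi-likelihood), Benjamini-Hochberg over all genes tested, threshold 0.05. The SE was taken as |log2 fold change| divided by √F. The 18 ZDF and Zucker libraries shared a fit, and the 11 DIO libraries shared a fit with sex as a term. As alternatives, genes were tested with DESeq2 1.42.0, with RLE factors, with no TMM factors, without a filter, with the compared groups alone, with single libraries left out, with libraries under 100 CPM of Fabp6, and with Fabp6 or Pdx1 covariates. Relations used log2(CPM + 1) with 100000 resamples, exact below 10 libraries (SciPy 1.17.1). The scripts were tested on simulated data. Of 50 pairs of libraries within groups, the smallest chi-square over its degrees of freedom was 14.0, so none was counted as a duplicate. Named genes are the 8 members, Fabp6, list genes past the threshold, marker genes as values, and the genes most like each member; Gcg, Neurog3 and Pdx1 come from the lists, and Vil1, the sex genes and ENSRNOG00000030106 served as checks. Members and lists were chosen with earlier results of these data known. Of 214 listed symbols 200 were found. Promoters are from RefSeq, GRCr8, and no coordinates of that build were used with the counts.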

Additional observations from a re-analysis of the deposited data

Results flagged for a closer look

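Within groups of 4 or 5 libraries, a library was singled out where its gap to the nearest other exceeded Dixon's 95% critical value, which chance alone does in about 1 of 20 groups. Obese control rat 1 stood high for Fabp6 (5687 CPM), Pyy (11.5 CPM) and Nts (128 CPM), against at most 4.25, 0.942 and 27.4 CPM in the other obese controls. DIO-stz pFUS rat 9 stood high for Fabp6 (5425 CPM), Pyy (45.2 CPM) and Sct (29.7 CPM), against at most 114, 8.00 and 9.25 CPM in the other DIO-stz pFUS rats. DIO-stz control rat 5 stood high for Cck (32.8 CPM), Ghrl (7.41 CPM) and Pdx1 (2.43 CPM), and was the DIO-stz control low in Fabp6. Nts was high in obese pFUS rat 6 (11.5 CPM), against 2.53 to 4.77 CPM in the other 4. Pdx1 stood high in obese control rat 3 (43.3 CPM), lean control rat 15 (7.42 CPM) and DIO-stz pFUS rat 8 (40.7 CPM).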

How the results depend on the processing

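No paired analysis was possible because the groups compared hold different rats with different numbers. With libraries high in Fabp6 left out, the members called for obese pFUS against obese control numbered 1 (Sct), and 1 also with log2 Pdx1 added or with no TMM factors, against 0 with all libraries, and the cause was not tested. In every other setting run, apart from 2 of the 9 refits among libraries low in Fabp6, 0 members were called. The same held in 55 results over the 5 comparisons that each left out 1 library, from 0 to 0 in each comparison. The same library left out counts under each comparison that holds it. With no TMM factors, chosen after seeing the data, obese pFUS called 1521 genes (39 higher, 1482 lower), against 9 (6 higher, 3 lower), and 2025 against 359 without libraries high in Fabp6. Without lean control rat 15 the genes called over all genes were 168 for obese against lean controls and 173 for lean pFUS against lean controls, against 2 and 1; the leave-one-out ranges were 1 to 168, 0 to 46 (obese pFUS), 0 to 173, 1 to 2 (interaction) and 0 to 0 (DIO-stz). Among libraries low in Fabp6, the members whose r with it had an unadjusted permutation p under 0.05 numbered 4. With a pseudocount of 0.1 they were 2, in ZDF and Zucker rats 2, and in DIO rats 1 (the last chosen after seeing the data). The cause was not tested, and the share over all genes was not computed for these permutations. In edgeR no member's slope on Fabp6 passed there after adjustment, where 0.0322% of all genes did. Of 918 member results under alternatives, 840 kept direction and side of the threshold, 73 changed sign and 5 passed where the first did not.

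Changes of sign were of log2 fold changes none of which had passed. For obese against lean controls they were, without libraries high in Fabp6, Gip -0.12 and Sct 0.061; with log2 Fabp6, Gip -0.035; with log2 Pdx1, Gip -0.013 and Pyy 0.18; with both changes, Pyy 0.24. For obese pFUS against obese control they were Gip -0.076 without libraries high in Fabp6, Gip -0.18 with log2 Fabp6, Gip -0.013 and Pyy 0.18 with log2 Pdx1, and Chga 0.0073 by DESeq2 and 0.0076 with RLE factors. For lean pFUS against lean control they were Gip -0.10 and Sct 0.045 without libraries high in Fabp6, Gip -0.17 with log2 Fabp6, Nts 0.30, Chga -0.017 and Tph1 -0.12 with log2 Pdx1, and Nts 0.33 and Tph1 -0.017 with both. In the interaction they were Gip 0.022 without libraries high in Fabp6, Cck 0.25 and Ghrl 0.061 with log2 Fabp6, and Ghrl 0.014 with both. For DIO-stz they were Pyy -0.53 and Tph1 -0.27 without libraries high in Fabp6, Pyy -0.044 without a sex term, Nts 0.14 with log2 Fabp6, Nts 0.42 and Tph1 -0.10 with log2 Pdx1, Nts 2.23 and Tph1 -1.13 with both, and Nts 0.41 in males; without libraries high in Fabp6 the lone DIO-stz control is assumed to vary like the other groups. With no TMM factors they were Gip -0.20 (obese pFUS) and Tph1 -0.054 (interaction), and without libraries high in Fabp6 as well, Gip -0.11 and Sct 0.052 (obese against lean controls), Gip -0.37, Cck -0.0081 and Tph1 -0.033 (obese pFUS), Gip -0.18 (lean pFUS), Tph1 -0.17 (interaction), and Pyy -0.62 and Tph1 -0.37 (DIO-stz). Leaving out 1 library, Gip ran from -0.10 to 0.44 (obese against lean controls), -0.16 to 0.25 (obese pFUS) and -0.52 to 0.011 (interaction), Chga from -0.088 to 0.098 (obese pFUS), -0.0043 to 0.28 (lean pFUS) and -0.28 to 0.0018 (interaction), Nts from -1.35 to 0.63 and Tph1 from -0.033 to 0.24 (interaction), and in DIO-stz Sct from -0.39 to 1.01, Pyy from -1.12 to 1.60, Nts from -0.48 to 0.42 and Tph1 from -0.083 to 0.99. Among libraries low in Fabp6, Gip in obese pFUS was -0.33, -0.011, -0.048 and -0.030 without obese pFUS rats 6, 8, 9 and 10 and -0.18, -0.076 and -0.096 without obese control rats 3, 4 and 5, and Chga was 0.042 without obese control rat 2. The r with Fabp6 changed sign to -0.44 for Gip (DIO rats, low in Fabp6) and, without the 2 farthest of the libraries high in Fabp6, to 0.36 for Gip, -0.13 for Pyy and -0.035 for Chga, and the r of Chga with Pdx1 to -0.019 without the 2 farthest. Pyy had 5 counts over the lean pFUS rats, so depth limits its fold change.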
